A study of Mus musculus with 8 samples.

Results

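Open chromatin was mapped around 7 genes that encode blood progenitor factors, Tal1, Lyl1, Lmo2, Ldb1, Gata2, Kit and Mitf, by ATAC-seq, an assay that cuts accessible DNA with the Tn5 transposase. A peak line of a list was assigned to a gene when its summit lay in the gene body or within 50 kb of either end of it. By this rule the 7 genes held 136 of 131575 lines with E47 at 4 h, 116 of 109772 with E47 at 16 h, 118 of 112023 with GFP at 4 h and 141 of 134423 with GFP at 16 h. Within a list, overlapping lines were joined to regions, and regions of different lists that shared 1 bp or more were treated as the same region. The 7 genes then held 62 of 60835 regions. All cells were ILC2s, innate lymphocytes that make type 2 cytokines, taken from the thymus of plck-Id1 mice on C57BL/6, in which the lck proximal promoter drives an Id1 transgene in the T lineage. They carried the retroviral vector MIGR1 with E47-ER and GFP (2 samples at 4 h and 2 at 16 h) or with GFP alone (2 samples at 4 h and 2 at 16 h), were sorted for GFP, grown in cytokines, and exposed to 4-hydroxytamoxifen for 4 or 16 h. In E47-ER, E47 is joined to the hormone-binding part of the estrogen receptor, which 4-hydroxytamoxifen activates. Every group thus shared the Id1 transgene, GFP and the drug, and no group without them was analysed here. The groups follow the titles and transduction labels. The free-text sample descriptions disagree with these, because they give replicate 1 of all 4 groups the empty vector and replicate 2 the vector with E47-ER, and every E47 against GFP direction rests on the titles. The authors made 1 list from the 2 samples of each group, so there is no spread between replicates, no test, and each comparison describes these 4 lists.

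Tal1 and Lyl1 are basic helix-loop-helix proteins that bind E-box DNA as dimers with E proteins such as E47, and Id1 ties up the same E proteins in dimers that cannot bind DNA. Lmo2 and Ldb1 bridge such dimers to a GATA protein, often Gata2 in stem and progenitor cells. Kit is the receptor for stem cell factor, and Mitf is a basic helix-loop-helix leucine zipper factor needed by mast cells and melanocytes, lineages that also need Kit.

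Promoters show where the gene starts lay relative to the called regions, so those of Mitf and Gata2, where some starts were called and others not, and of Kit, where the start was called in all lists, are printed. Ldb1 also had called and uncalled starts and is not printed. Each sequence runs from 250 bases before the start to 30 bases after it and is given 5′ to 3′ (RefSeq, GRCm38.p6, the assembly of mm10, plus strand). Capitals mark matches on either strand to the E box CANNTG or to the GATA-type letters AGATAA or TGATAA.
Mitf promoter 1, chr6:97806808-97807087, called in all 4 lists: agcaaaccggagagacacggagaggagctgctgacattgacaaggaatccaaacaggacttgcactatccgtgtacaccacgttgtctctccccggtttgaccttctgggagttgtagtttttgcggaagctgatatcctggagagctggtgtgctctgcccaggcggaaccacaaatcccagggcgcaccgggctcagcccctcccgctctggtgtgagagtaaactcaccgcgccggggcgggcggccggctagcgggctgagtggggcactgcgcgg
Mitf promoter 2, chr6:97929567-97929846, called in no list: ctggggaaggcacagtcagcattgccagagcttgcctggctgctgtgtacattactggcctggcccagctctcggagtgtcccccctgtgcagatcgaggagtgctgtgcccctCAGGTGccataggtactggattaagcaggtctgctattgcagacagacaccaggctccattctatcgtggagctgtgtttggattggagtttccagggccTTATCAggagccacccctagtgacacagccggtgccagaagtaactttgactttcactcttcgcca
Mitf promoter 3, chr6:97991533-97991812, called in no list: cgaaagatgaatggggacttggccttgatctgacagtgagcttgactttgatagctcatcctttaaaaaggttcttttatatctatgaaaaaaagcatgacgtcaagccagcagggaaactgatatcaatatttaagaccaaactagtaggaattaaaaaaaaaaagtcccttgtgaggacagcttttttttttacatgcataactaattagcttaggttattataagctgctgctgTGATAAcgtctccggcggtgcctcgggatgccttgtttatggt
Gata2 promoter 1, chr6:88193641-88193920, called in no list: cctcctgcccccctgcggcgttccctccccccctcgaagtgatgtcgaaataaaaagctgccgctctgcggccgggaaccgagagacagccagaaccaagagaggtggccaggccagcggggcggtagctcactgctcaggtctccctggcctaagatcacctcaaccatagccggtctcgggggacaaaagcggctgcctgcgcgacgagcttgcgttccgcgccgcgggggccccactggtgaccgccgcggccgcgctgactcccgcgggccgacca
Gata2 promoter 2, chr6:88198414-88198693, called in all 4 lists: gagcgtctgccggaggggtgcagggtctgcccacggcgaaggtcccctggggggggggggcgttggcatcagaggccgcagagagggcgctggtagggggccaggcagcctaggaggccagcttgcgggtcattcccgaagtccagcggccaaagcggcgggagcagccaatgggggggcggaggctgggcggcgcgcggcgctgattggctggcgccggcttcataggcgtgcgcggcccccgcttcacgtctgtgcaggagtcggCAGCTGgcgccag
Kit promoter 1, chr5:75574737-75575016, called in all 4 lists: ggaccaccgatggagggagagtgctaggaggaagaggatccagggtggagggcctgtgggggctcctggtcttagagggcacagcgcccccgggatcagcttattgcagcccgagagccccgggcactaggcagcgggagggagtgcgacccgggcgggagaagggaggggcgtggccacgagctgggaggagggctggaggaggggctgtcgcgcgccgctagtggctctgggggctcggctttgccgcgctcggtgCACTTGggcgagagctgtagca

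The promoter table held 13 entries for 6 of the genes, and Lmo2 had none. A region overlapped 6 of the 13 entries in all 4 lists and the other 7 in none, and no entry was called with one vector and not with the other. Over the 32851 promoters of the table, 11691 (35.6%) were called in all 4 lists and 19659 in none. Promoters called in only some lists were thus few in the whole table too, and their absence among 13 entries is no trait of these genes. The called entries were promoter 1 of Mitf, promoter 2 of Gata2, both entries of Kit (4 bp apart and covered by the same region) and promoters 2 and 3 of Ldb1. The entries without a region were promoter 1 of Ldb1, both of Tal1, promoter 1 of Gata2, promoters 2 and 3 of Mitf and the entry of Lyl1. In windows of 300 bases, CANNTG was found in 7 of the 13 member promoters and in 72.3% of all promoters. The forms CAGCTG and CAGGTG, which CANNTG includes, were found in 1 and 2 of the 13 and in 16.3% and 20.2% of all promoters. CATGTG and CACGTG, the E-box letters that Mitf binds, were in 0 of the 13, against 14.2% and 7.15% of all promoters. AGATAA and TGATAA were each found in 2 of the 13, against 11.2% and 9.05% of all. Each called member promoter except promoter 2 of Gata2 and the Kit entries lacked any of these letters. A match describes letters in a window and is no evidence of binding.

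Over the 7 genes, most accessible sites were called with both vectors, and the sites missing from both E47 lists were mainly at Mitf. Of the 62 regions, 37 were in all 4 lists (59.7%, exact 95% binomial interval 46.4% to 71.9%, counting error only), against 48.8% of all 60835 regions. No region was E47-only at both times (0 of 62, which allows up to 5.78% by the same interval), against 3.43% of all regions. GFP-only at both times were 4 regions (6.45%, interval 1.79% to 15.7%), against 4.56% of all. All 3 intervals hold the share over all regions. The absence of a call does not show that a site was closed. The lists differ in length (49811 and 40649 regions with E47 at 4 and 16 h, 42665 and 52846 with GFP at 4 and 16 h). Whether calls at low strength follow that length was not tested.

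Read 1 time at a time, the genes leaned to E47 at 4 h and to GFP at 16 h, as the whole lists did. At 4 h, 8 of the 62 regions were E47-only (12.9%, against 19.5% of all regions) and 5 were GFP-only (8.06%, against 8.37%). At 16 h, 1 region was E47-only (1.61%, against 7.48% of all) and 14 were GFP-only (22.6%, against 26.4%). With all lists shortened to the same length, the counts at 4 h were 4 E47-only and 8 GFP-only, so the lean at 4 h turned round. At 16 h they were 3 and 7. No share over all regions is given at that length, so whether the turn is particular to these genes cannot be read. Of the single patterns, 4 regions were called in the E47 4 h list alone (6.45%, against 7.21% of all regions). In the E47 16 h list alone there was 1 (1.61%, against 2.28%). The GFP 4 h list alone held 1 (1.61%, against 2.24%) and the GFP 16 h list alone 4 (6.45%, against 10.6%). A further 5 were missing only from the E47 16 h list (8.06%, against 6.67% of all regions). Missing only from the GFP 4 h list were 3 (4.84%, against 4.29%). These are the shorter lists of each vector. By gene, regions in all 4 lists were 13 of 16 at Lyl1, 9 of 12 at Ldb1, 6 of 12 at Tal1, 2 of 4 at Lmo2, 2 of 3 at Gata2, 2 of 6 at Kit and 3 of 9 at Mitf.

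**Figure D1:**
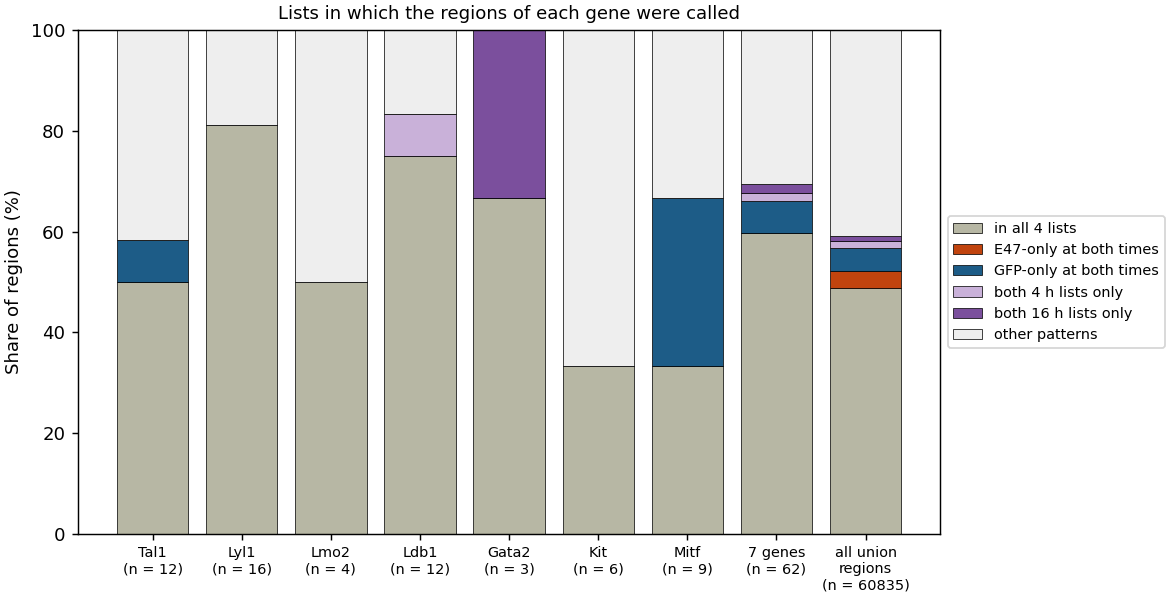
Share of the regions of each gene, of the 7 genes and of all regions (y axis, %) by the lists in which they were called. Mitf stands out by 3 of 9 regions GFP-only at both times, Lyl1 by 13 of 16 regions in all 4 lists, and no gene has a region E47-only at both times.

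**Figure D2:**
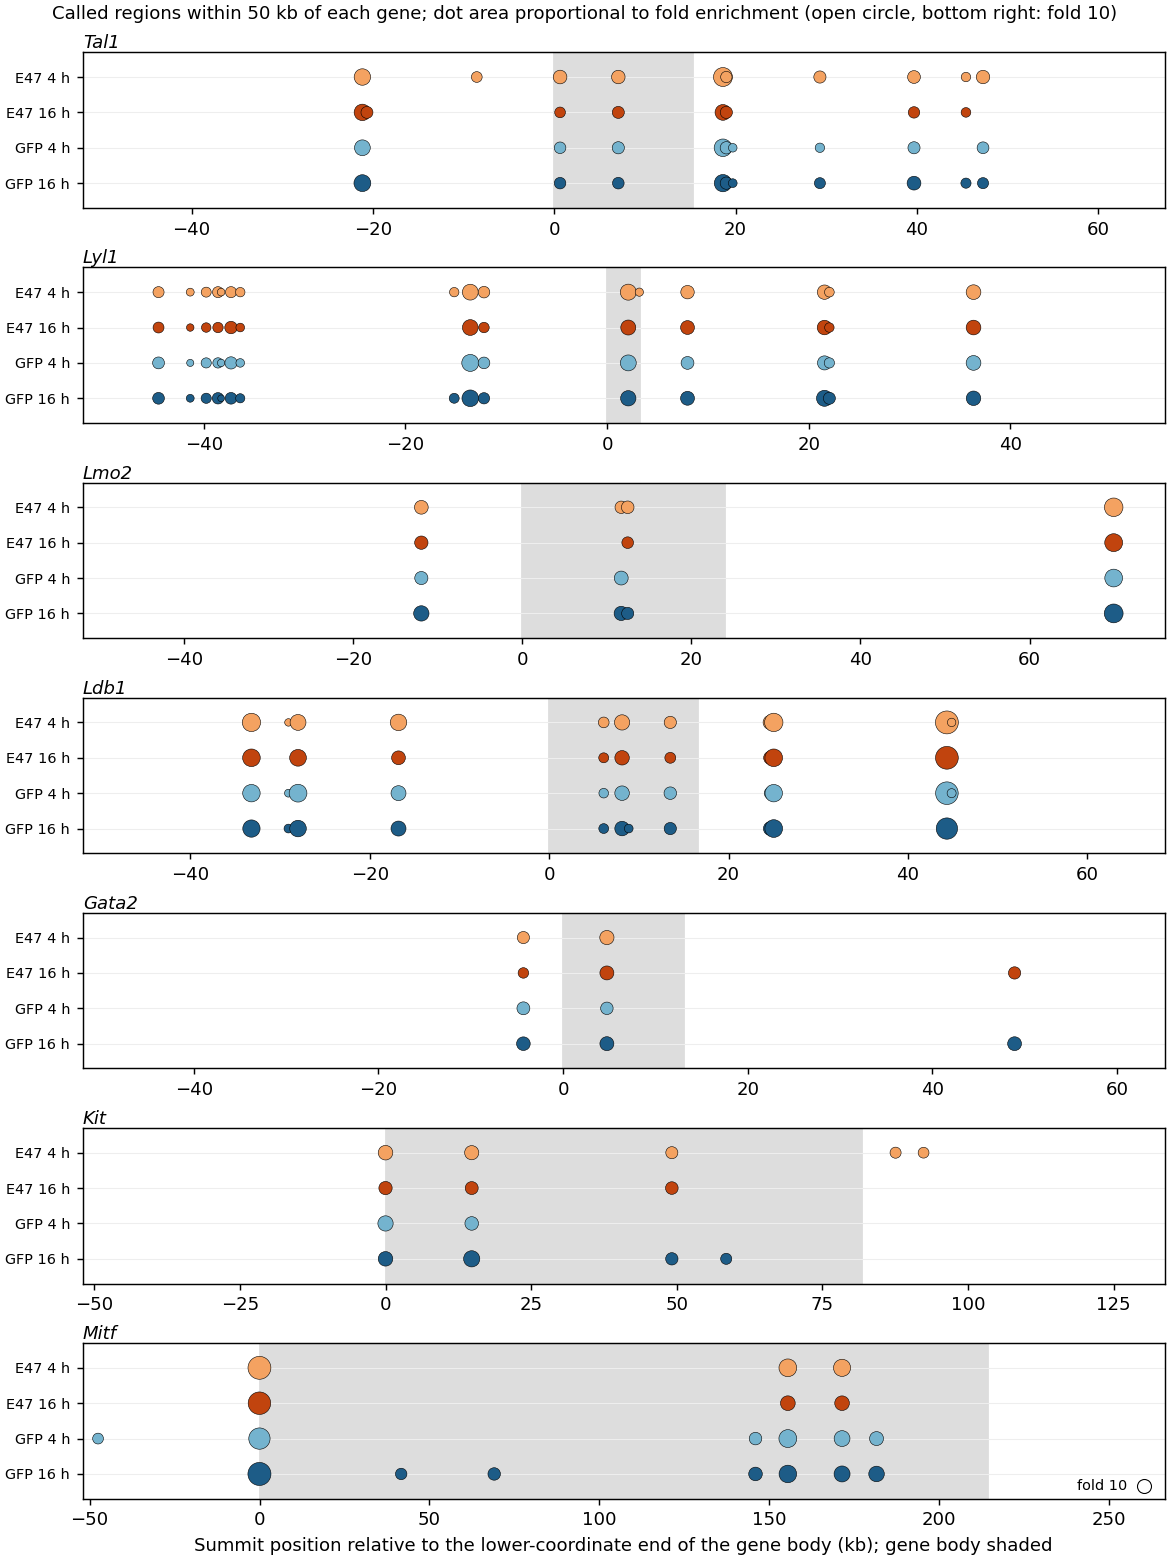
Called regions within 50 kb of each gene, with the position of the summit in kb from the lower-coordinate end of the gene body (x axis) and 1 row per list, the E47 rows above the GFP rows. Dot area is proportional to fold enrichment and the gene body is shaded; in the Mitf panel 3 positions in the right part of the gene have dots in both GFP rows and in neither E47 row, of which 1 lies beside a region of all 4 lists.

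At Tal1 (chr4:115056426-115071755), 4 of the 5 regions in and just beyond the gene were called in all 4 lists, and the other 1 in the GFP lists alone. Fold is the authors' enrichment of a peak over its background, given here as the highest of a region. Inside the gene, the region at chr4:115056623-115057548 lay between the 2 promoter entries and overlapped neither. Its fold was 9.51 at 4 h and 5.86 at 16 h with E47, against 6.87 at 4 h and 6.80 at 16 h with GFP. E47 was thus the higher at 4 h and the lower at 16 h, at percentiles 91.6 and 34.2 of the ratios of all shared regions. The other region inside the gene, chr4:115062963-115063613, had 9.34 and 7.41 with E47 at 4 and 16 h, against 7.58 and 6.91 with GFP. The strongest Tal1 region, chr4:115074692-115075148, had its summit 18613 bp from the gene's start and lies on the downstream side, where a stem cell enhancer of Tal1 is known in the mouse. It had folds of 18.3 and 12.7 with E47 at 4 and 16 h, against 15.8 and 15.3 with GFP. A neighbouring region, chr4:115075247-115075822, was also in all lists, with 6.59 and 7.58 with E47 at 4 and 16 h, against 7.76 and 7.73 with GFP. The last of this cluster, chr4:115076034-115076212, was the only Tal1 region GFP-only at both times, and it was weak. Its folds of 3.77 at 4 h and 3.94 at 16 h with GFP were at percentiles 3.57 and 4.93 of the folds of their lists, and the nearest E47 summits, in the neighbouring region, were 405 bp away at 4 h and 386 bp at 16 h. Among all 2776 regions GFP-only at both times it ranked 2494 by strength, the mean percentile of −log10 p in both lists.

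Farther from Tal1, regions were nearer to other genes. The site at chr4:115095847-115096880, 39689 bp from the Tal1 start and beside Pdzk1ip1, is on the side of a known erythroid enhancer of Tal1. Its fold was 8.42 and 6.69 with E47 at 4 and 16 h, against 7.50 and 9.73 with GFP. The E47 value was thus the higher at 4 h and the lower at 16 h, at percentiles 63.2 and 10.1 of the ratios of all shared regions. At chr4:115085654-115085893 E47 had 7.60 at 4 h and no call at 16 h, against 4.53 at 4 h and 6.22 at 16 h with GFP. Its log2 ratio at 4 h, E47 over GFP, was 0.75, at percentile 98.2 of all regions shared at 4 h. Of the other Tal1 regions, 3 were called with E47 and not with GFP at the same time. These were chr4:115047803-115048029 in the E47 4 h list alone (fold 5.94), chr4:115035694-115035954, inside Stil, in the E47 16 h list alone (fold 7.31), and chr4:115101725-115101912, with 4.55 and 4.77 with E47 at 4 and 16 h, against no call at 4 h and 5.31 at 16 h with GFP. Tal1 had separated calls in both directions. Its 12 regions were E47-only in 2 and GFP-only in 1 at 4 h, and E47-only in 1 and GFP-only in 3 at 16 h.

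Lyl1 (chr8:84701423-84704716), the close relative of Tal1, lies in a gene-dense stretch and overlaps Nfix at its end. Of its 16 regions, 14 were nearer to Ier2, Nacc1, Trmt1 or Nfix, so most of its count describes its neighbours. The region inside Lyl1, chr8:84703114-84704247, was in all lists, with folds of 13.1 and 11.5 with E47 at 4 and 16 h, against 13.0 and 11.99 with GFP. Those 4 values lie close together in both vectors. The second region inside the gene, chr8:84704530-84704664, was in the E47 4 h list alone, at a fold of 3.47. No Lyl1 region was called in one vector and missed in the other at both times.

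Lmo2 (chr2:103957903-103981878), a LIM-only adaptor without DNA binding of its own, had 4 regions. The upstream one, chr2:103945517-103946175, was in all lists, with folds of 9.65 and 9.09 with E47 at 4 and 16 h, against 8.84 and 12.01 with GFP. A pair of regions inside the gene were missing from different lists. At chr2:103969365-103969766 E47 had 7.86 at 4 h and no call at 16 h, against 9.88 and 10.4 with GFP. At chr2:103970101-103970937 E47 had 8.13 and 6.94 at 4 and 16 h, against no call at 4 h and 7.54 at 16 h with GFP. The strongest region, chr2:104027447-104028584, lay 45980 bp beyond the gene in Fbxo3 and had 17.6 and 16.3 with E47, against 16.1 and 18.1 with GFP. At 16 h all 3 shared Lmo2 regions had the lower fold with E47, with a median log2 ratio of -0.15 beside -0.09 for all shared regions.

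Ldb1 (chr19:46031525-46048145), which dimerises and holds the complex together, had 3 of its 4 inner regions in all lists. Inside the gene, the region at promoter 2, chr19:46039441-46040007, had folds of 11.9 and 10.7 with E47 at 4 and 16 h, against 10.8 and 10.8 with GFP. The region at promoter 3, chr19:46044800-46045739, had 7.64 and 6.08 with E47, against 8.03 and 7.67 with GFP. Another site inside the gene, chr19:46037527-46037746, had 5.89 and 5.06 with E47, against 4.71 and 4.95 with GFP. The only region inside Ldb1 that was not in all lists, chr19:46040312-46040485, was in the GFP 16 h list alone, at 3.88. The other 8 of its 12 regions were nearer to Armh3, Hps6, Pprc1 or Nolc1. Of these, 6 were in all lists, with folds from 7.29 to 26.8.

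Gata2 (chr6:88193891-88207032), the GATA factor of stem cells and mast cells, had 3 regions and none that separated the vectors. The region over promoter 2, chr6:88198514-88198889, had folds of 10.3 and 9.98 with E47 at 4 and 16 h, against 7.96 and 9.98 with GFP. The region upstream of the gene, chr6:88189537-88190191, with its summit 4290 bp before the first start, had 7.57 and 5.68 with E47, against 8.51 and 9.51 with GFP. E47 was the lower at both times there. The log2 ratio of that region was -0.17 at 4 h and -0.74 at 16 h, and the 16 h value lay at percentile 4.14 of the 33682 regions shared at 16 h. It was the lowest ratio of any member region. The remaining region, chr6:88242651-88242882, was called in both 16 h lists and in neither 4 h list, with a fold of 7.73 with E47 and 9.78 with GFP. Since the cells were profiled in bulk, fewer cells with an open site and less signal per cell cannot be told apart in any of these folds.

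Kit (chr5:75574987-75656722), the receptor, had 2 of its 6 regions in all lists, at the promoter and inside the gene. Its other sites were scattered over lists. The promoter region, chr5:75574662-75576050, had folds of 10.9 and 9.02 with E47 at 4 and 16 h, against 11.9 and 10.8 with GFP. The fold was lower with E47 at both times, at percentiles 16.5 and 29.3 of the ratios of all shared regions. At 16 h, 64.3% of all shared regions were lower with E47. The region at chr5:75589415-75589949 inside the gene had 10.3 and 8.59 with E47, against 9.40 and 13.4 with GFP. Its log2 ratio at 16 h was -0.64, at percentile 6.51 of all shared regions. At chr5:75623964-75624432, also inside, E47 had 7.44 and 8.14 at 4 and 16 h, against no call at 4 h and 7.79 at 16 h with GFP. With lists of equal length the GFP 16 h call was lost, and this was then the 1 member region E47-only at both times. A pair of sites beyond the end of Kit, chr5:75662311-75662738 and chr5:75667248-75667465, were in the E47 4 h list alone, at 6.27 and 5.99. One further site inside the gene, chr5:75633361-75633763, was in the GFP 16 h list alone, at 6.31. Neither kind was seen at both times.

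Mitf (chr6:97807002-98021360) held 3 of the 4 member regions that were GFP-only at both times. It had 3 of 9 regions in each E47 list, against 7 with GFP at 4 h and 8 with GFP at 16 h. No region was called with E47 and missed with GFP at either time. Of all 60835 regions joined across lists, 47243 were called with E47 at 4 h and 38235 with E47 at 16 h. With GFP, 40475 of them were called at 4 h and 49753 at 16 h. The peak lines ran the same way, with 12 and 11 with E47 at 4 and 16 h, against 16 and 22 with GFP. All 9 regions had Mitf as their nearest gene, and 7 lay inside its body of 214359 bp. The first-promoter region, chr6:97806764-97807771, was among the strongest of every list. Its folds were 26.8 and 25.9 with E47 at 4 and 16 h, against 23.2 and 27.1 with GFP, at percentiles 98.2 to 99.6 of the folds of their lists. The start of the gene thus stayed called at high fold with either vector, while sites inside it differed.

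The strongest Mitf site missing with E47 was chr6:97988441-97988688, with its summit 3191 bp before the start of promoter 3. With GFP its fold was 9.93 at 4 h and 12.4 at 16 h, at percentiles 57.9 and 70.3 of the folds of those lists. With E47 it was not called, and the nearest E47 summits were 9563 bp away at 4 h and 9938 bp at 16 h. By the strength of its −log10 p (percentiles 40.5 and 50.9) it ranked 225 of the 2776 regions GFP-only at both times. Among GFP regions within 5 percentile points of its strength, 9.39% of 3983 were not called with E47 at 4 h and 27.2% of 4948 were not called with E47 at 16 h. Those missing from both E47 lists were 6.503% of the GFP 4 h regions and 9.46% of the GFP 16 h regions of like strength. A missing call at this strength was thus less common at 4 h than at 16 h.

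The other pair of GFP-only Mitf sites was weaker. The region at chr6:97952896-97953235 had a GFP fold of 8.06 at 4 h and 9.46 at 16 h, and the nearest E47 summits were 9515 and 9522 bp away. Of GFP regions of like strength, 21.9% at 4 h and 47.5% at 16 h were not called with E47. The region at chr6:97961791-97962285 had 6.02 and 6.997 with GFP at 4 and 16 h. It lay directly beside a region of all 4 lists, whose E47 summits were 469 and 476 bp away. With a summit within 500 bp counted as a call it was in all lists, and Mitf kept 2 sites GFP-only at both times. Of GFP regions of like strength, 33.4% at 4 h and 59.0% at 16 h were not called with E47. By strength the first ranked 903 and the second 1607 of 2776. The single-list sites of Mitf were also GFP ones: chr6:97848224-97848931 (fold 6.71) and chr6:97875774-97876254 (fold 7.98) in the GFP 16 h list alone, and chr6:97759438-97759612 (fold 6.00), upstream of the gene, in the GFP 4 h list alone.

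**Figure D3:**
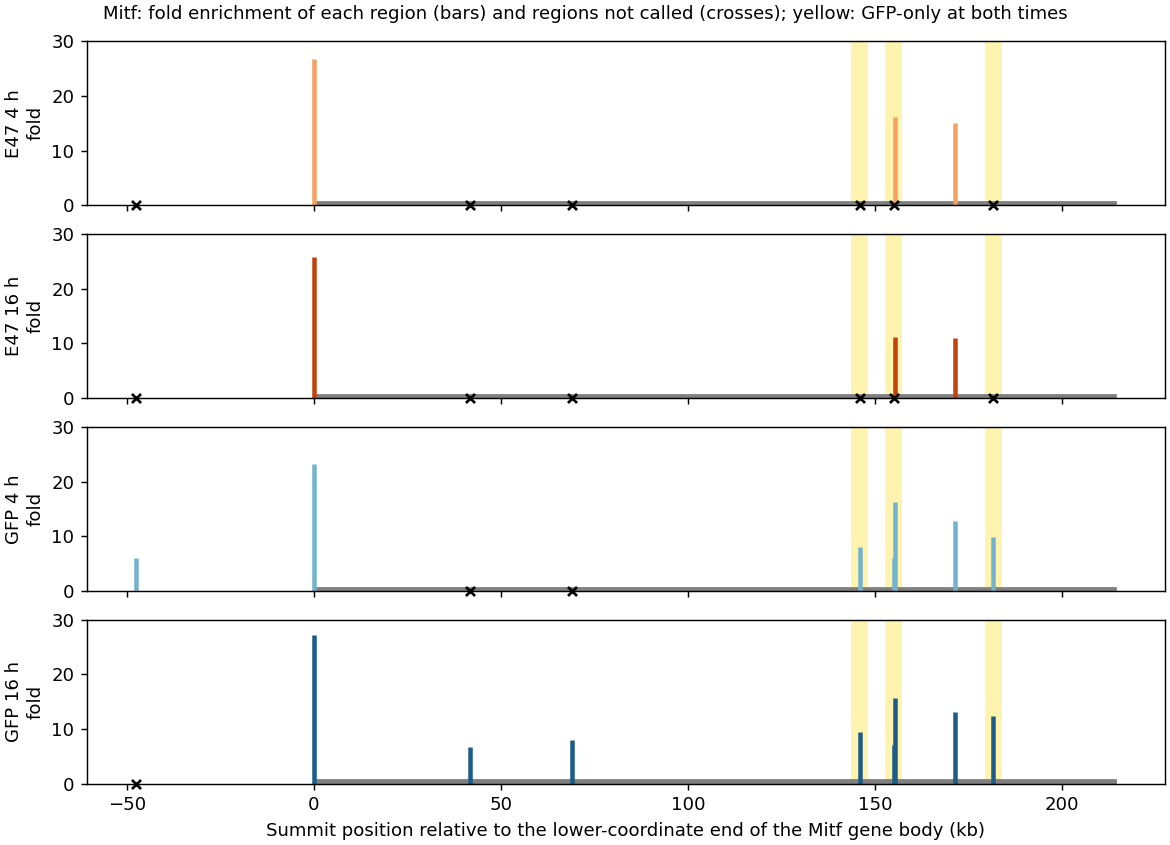
Fold enrichment (y axis) of each region near Mitf by the position of its summit in kb from the lower-coordinate end of the gene (x axis), with 1 panel per list. Bars are called regions, crosses regions not called, the grey strip is the gene and yellow marks the 3 sites GFP-only at both times, with GFP folds from 6.02 to 12.4.

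The shared sites inside Mitf had lower folds with E47 at 16 h. The region at chr6:97962334-97962685 had 16.1 and 11.1 with E47 at 4 and 16 h, against 16.3 and 15.8 with GFP. The region at chr6:97978177-97979134 had 15.0 and 10.9 with E47, against 12.8 and 13.1 with GFP. At 16 h their log2 ratios were -0.51 and -0.26, at percentiles 11.6 and 29.9 of all shared regions, while that of the first promoter was -0.07. At 4 h the same ratios were -0.02 and 0.23, and 0.21 at the promoter, so the lower values with E47 were at 16 h.

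Set against other genes, 3 or more sites GFP-only at both times were uncommon, and less so near long genes. The cut of 3 equals the count at Mitf, which was chosen with earlier results known, so the shares below describe and do not test. Mitf fell below that cut when lines were merged across gaps of 200 bp, and when a summit within 500 bp counted as a call. Of 21887 protein-coding genes, 157 (0.717%) had at least 3 within 50 kb, and 102 (0.466%) had them with no site E47-only at both times. Of the 990 genes with a body of 200 kb or more, as Mitf has, 50 (5.05%) had at least 3. A site E47-only at both times lay within 50 kb of 16.2% of all genes and of 0 of the 7 genes. A site GFP-only at both times lay near 19.4% of all genes and near 2 of the 7, Tal1 and Mitf. With lists of equal length the Tal1 site was no longer GFP-only at both times and 1 at Ldb1, chr19:46002322-46002613, was (GFP folds of 3.15 at 4 h and 3.95 at 16 h); with a summit within 500 bp counted as a call, the Tal1 site was lost too. All 3 Mitf sites were GFP-only at both times with lists of equal length too, but none was when only regions above the list median were kept. Of 8548 genes with at least 8 regions, Ypel5 had the same shares called as Mitf (33.3% of its regions in each E47 list, against 77.8% with GFP at 4 h and 88.9% with GFP at 16 h). Abi3bp and Zfp24 came next, at no more than 8.33 and 8.55 percentage points from Mitf in any list. By the same measure Ankrd28, Apeh and Epn1 had the shares of Tal1, Junb, Mast1 and Rassf1 were nearest to Lyl1, and Inhbc, Inhbe and Pxk to Ldb1. The likeness of Ypel5 to Mitf rests on 9 regions of each gene.

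Fold ratios over the shared regions moved with those of the genome. At 4 h, 43 member regions were shared and the median log2 ratio of E47 over GFP was 0.12, beside 0.09 for all 35382 shared regions, with 27 higher and 16 lower with E47. At 16 h, 41 were shared and the median was -0.15, beside -0.09 for all 33682, with 8 higher and 33 lower with E47 (80.5% lower, against 64.3% of all). Of the 37 regions in all 4 lists, 10 had the lower fold with E47 at both times, against 22.5% of all such regions, and 4 the higher fold at both times, against 27.4%. The 10 were spread over 6 genes: 5 at Lyl1 and 1 each at Tal1, Ldb1, Gata2, Kit and Mitf. The 4 with the higher fold at both times were 3 at Ldb1 and 1 at Tal1. These folds belong to each list and carry no replicate error, so the ratios are descriptions.

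**Figure D4:**
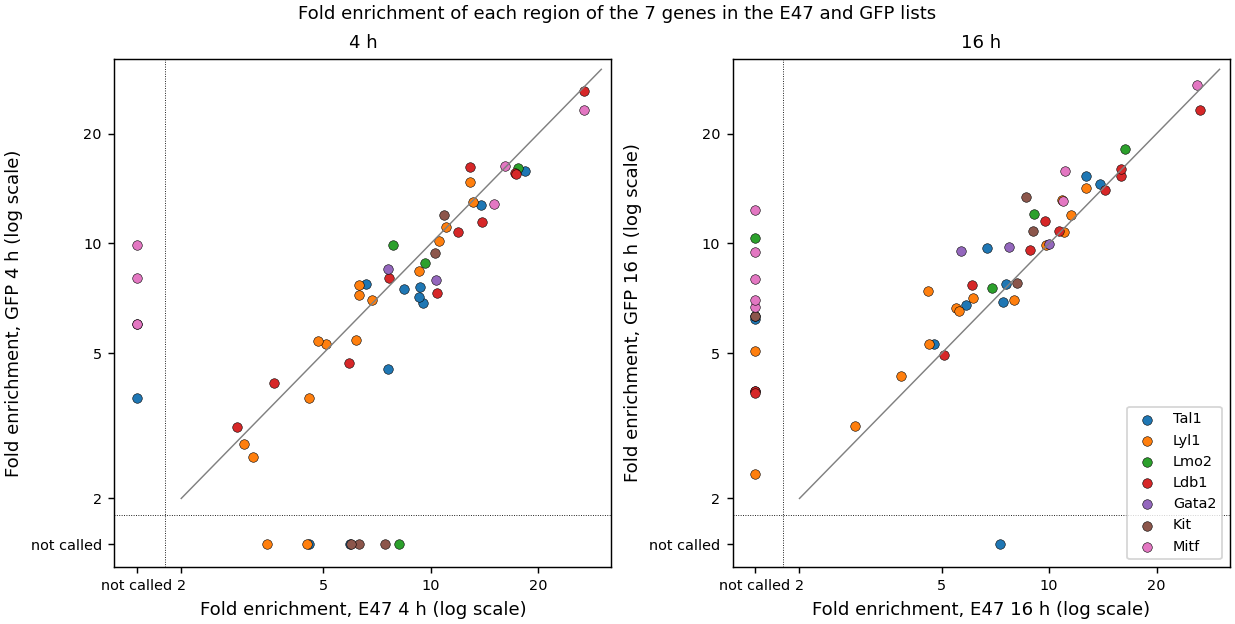
Fold enrichment of each region of the 7 genes with E47 (x axis) and with GFP (y axis) on log scales, at 4 h (left) and 16 h (right), 1 dot per region. Regions called with 1 vector lie in the strips marked not called, and the line marks equal folds: at 16 h, 33 of the 41 shared regions lie on the GFP side of the line, against 16 of 43 at 4 h.

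Partner genes of the complex showed separated sites in both directions. The lists of partners, like the 7 genes, were picked with knowledge of these data. Of 18 partners of the Lmo2 and Tal1 complex, 5 had a site E47-only at both times within 50 kb and 7 a site GFP-only at both times, with 7 sites in all against 10. The shares of partners (5 and 7 of 18) stand beside 16.2% and 19.4% of all genes. With a list picked in this way and not matched for gene length, a higher share cannot be read as a trait of partners. Cbfa2t3, a corepressor that joins the complex, had 3 E47-only sites, the strongest with folds of 6.43 and 6.77 with E47 at 4 and 16 h. Ssbp3, Ssbp4 and Tcf3, which encodes E47 itself, had 1 E47-only site each, with folds from 3.93 to 7.28, and Ssbp4 had a GFP-only site too. Runx1, a core factor of blood stem cells, had 3 GFP-only sites (strongest 5.69 and 8.01 with GFP at 4 and 16 h) and Tcf12, the E protein HEB, had 2 (strongest 8.99 and 11.3). Hhex (8.62 and 9.68) and Lmo1 (5.63 and 8.32) had 1 GFP-only site each.

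Other stem and progenitor genes and mast cell genes had sites of both kinds. Of 13 stem and progenitor genes, 5 had an E47-only site at both times and 4 a GFP-only one, beside 16.2% and 19.4% of all genes. Fli1 had both kinds: 2 E47-only sites, the strongest inside the gene at 4.93 and 4.78 with E47 at 4 and 16 h, and 1 GFP-only site at 12.3 and 14.8 with GFP, the strongest of these lists. Myb and Hoxa9 also had both kinds, Erg had an E47-only site (5.15 and 6.70 with E47) and Meis1 a GFP-only one (7.49 and 5.56 with GFP). Of 14 genes of the Kit and Mitf axis in mast cells, 2 had an E47-only site and 3 a GFP-only one, shares near the 16.2% and 19.4% of all genes. Tfeb, a relative of Mitf, had a GFP-only site 255 bp from its body (7.86 and 6.498 with GFP at 4 and 16 h) and Mcpt4, a mast cell protease, one 25068 bp away (7.68 and 10.9). Bcl2, a survival gene that Mitf controls in melanocytes, had 2 E47-only sites, the strongest at 7.66 and 8.34 with E47, and Cdk2 had 1 of each kind.

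Marker genes of ILC2s and of other cell types were looked up in each list. The share of all genes with a region in the body or within 5 kb is not given. The counts below thus do not by themselves mark or exclude a cell type. All 12 ILC2 markers had a region in the body or within 5 kb in every list. Of 7 mast cell and basophil markers, 2 (Cpa3 and Hdc) had one in every list and 5 (Ms4a2, Fcer1a, Cma1, Tpsb2 and Mcpt4) had none in any. The number with a region was the same, 2, in the E47 and the GFP lists at both times. Of 6 T cell markers, 4 had a region in each E47 list, against 3 with GFP at 4 h and 4 with GFP at 16 h. Of 4 B cell markers, 4 had one with E47 at 4 h and 3 with E47 at 16 h, against 3 in both GFP lists. Myeloid and erythroid markers had a region in 2 of 4 genes in every list, and Gata1 and the globin gene Hbb-bs in none. The part of other cells in the Mitf calls was not tested. At the edge of the window, the outermost Mitf region inside it lay 47513 bp from the gene and the next one outside 84109 bp, in all 4 lists.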

How the data were processed

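Thymic ILC2s were profiled by ATAC-seq in 8 samples, 2 for each of 4 groups. The submitters' processing notes name mm10 and the tools DiffBind, MACS2, Bowtie2 and cutadapt, whose roles and versions are not given in the sources used. Reads had been trimmed, cleared of duplicates and mitochondrial reads and Tn5-adjusted, per the labels. The authors deposited 1 conservative list per group, kept for agreement between replicates by irreproducible discovery rate; whether both samples of a group were separate cultures or animals is not stated. The deposited lists give a fold (a ratio over background) and a −log10 p per peak, each comparable only within its list. Read depth is unknown.

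Lines were merged, joined across lists at 1 bp, and assigned to a gene by summit within 50 kb of its RefSeq body (GRCm38.p6); a region took the highest fold of its lines. Percentiles of folds and of −log10 p are within a list. E47-only and GFP-only mean called with that vector and not with the other at the same time. The members and all gene lists were chosen with earlier results of these data known. Of the partner lists, up to 4 genes per list and direction were named, those with the most separated sites and then the strongest; genes nearest to a described region and the 3 genes most like a member with 8 or more regions were named too. Alternatives changed the window (10 kb, 100 kb, gene body, nearest gene), the overlap (50%, a gap of 200 bp), the list length, the strength and single summits within 150 bp; a 500 bp rule was added after seeing the data. Code was tested on simulated regions. Intervals are exact (Clopper-Pearson) at 95% and cover counting error only. Values were computed in Python 3.11.15 (scipy 1.17.1, numpy 2.4.6, pandas 2.3.3) and drawn with matplotlib 3.10.9.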

Additional observations from a re-analysis of the deposited data

Results flagged for a closer look

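At Tal1, Lyl1, Lmo2 and Kit, the balance of calls between the vectors lay on the E47 side at 4 h and on the GFP side at 16 h; these differences between times were not tested. Taking the E47-only count less the GFP-only count, the balance was 1 at 4 h and -2 at 16 h at Tal1, 2 and -2 at Lyl1, 1 and -1 at Lmo2, and 3 and -1 at Kit. Over the 7 genes it was 3 at 4 h and -13 at 16 h. Mitf had more GFP-only than E47-only regions at both times. The E47 list is the longer of the pair at 4 h (49811 regions with E47, 42665 with GFP) and the shorter at 16 h (40649 with E47, 52846 with GFP). With lists of equal length the counts over the 7 genes at 4 h were 4 E47-only and 8 GFP-only, with no share over all regions at that length to set beside them. At that length Lmo2 kept the pattern, with 1 E47-only and 0 GFP-only at 4 h and 0 and 1 at 16 h, and the other 3 genes did not. Tal1 had 1 E47-only and 1 GFP-only at 4 h and 2 and 0 at 16 h, Lyl1 had 1 and 1 at 4 h and 0 and 1 at 16 h, and Kit had 1 and 0 at 4 h and 1 and 0 at 16 h.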

How the results depend on the processing

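Of 81 values recomputed under the alternatives, 52 stayed within their limits and 29 moved; the cause was not tested, other than that smaller windows and stricter rules hold fewer regions by construction (from 62 regions to 32 within 10 kb, 23 in gene bodies, 35 above the list median, 31 with a member nearest and 55 at equal length, and up to 81 within 100 kb and 122 with single summits). Regions GFP-only at both times numbered 1 above the median of each list and 2 with the 500 bp rule, against 4. The 1 above the median was none of those 4, which all fall below the median of the GFP 4 h list. It was chr4:115075247-115075822 at Tal1, which is in all 4 full lists. Its −log10 p percentiles at 4 and 16 h were 42.5 and 43.5 with E47, against 58.8 and 62.2 with GFP. Regions E47-only at both times numbered 1 at equal list length (at Kit) and 1 with single summits (at Ldb1), against 0. Regions in all 4 lists numbered 18 within 10 kb, 12 in gene bodies, 19 above the median, 72 with single summits and 16 with a member nearest, against 37. At 4 h, E47-only regions numbered 5 within 10 kb, 3 in bodies, 4 at equal length, 21 with single summits and 5 with a member nearest, against 8. At 4 h, GFP-only regions numbered 3 in bodies, 1 above the median, 8 at equal length and 9 with single summits, against 5. At 16 h, E47-only regions numbered 0 within 10 kb, 2 within 100 kb, 0 in bodies, 3 at equal length, 4 with single summits and 0 with a member nearest, against 1. At 16 h, GFP-only regions numbered 9 within 10 kb, 8 in bodies, 7 at equal length, 28 with single summits and 9 with a member nearest, against 14. Shares over all regions are not given for the alternatives. Both median log2 ratios kept their sign, from 0.05 to 0.15 at 4 h and from -0.17 to -0.07 at 16 h. Mitf had 3 sites GFP-only at both times at equal length, 4 with single summits and 2 with the 500 bp rule. Above the median of each list, none of the 3 Mitf sites stayed GFP-only at both times. Their −log10 p percentiles in the GFP 4 h list were 26.1, 16.5 and 40.5. Merging across gaps of 200 bp gave 3 such regions over the 7 genes, against 4. The site lost was the Mitf one at chr6:97961791-97962285, which lies less than 200 bp from a region of all 4 lists. Mitf thus fell below 3 such sites there, as with the 500 bp rule. No paired analysis was possible because each group has 1 pooled list, and for the same reason no replicate could be left out. Depth per library is unknown, so a missing call at low strength cannot be read as a closed site.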
